A study of Mus musculus with 3 samples.

Results

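Pbx3 and Meis1 encode homeodomain proteins of the TALE class, which bind DNA together with HOX proteins. The intervals described here are those bound by the fusion NUP98-HOXD13 at these genes. The genes were chosen with earlier results of these data known. Their intervals were then taken by place alone: the summit of an interval lay inside the gene span or within 10 kb of it. This gave 10 intervals of 1013 on the chromosomes, 8 of 613 in the list from cells given DMSO and 2 of 400 in the list from cells given VTP50469. Of the 8 DMSO intervals 7 belonged to Pbx3 and 1 to Meis1, and both VTP50469 intervals belonged to Pbx3.

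PBX proteins bind DNA next to HOX proteins and change which sequences those proteins recognise. MEIS proteins bind PBX proteins and many HOX proteins, and such proteins form complexes on shared sites. In blood, MEIS1 and PBX3 act with HOXA proteins in immature cells, and both genes are widely studied in leukaemias with raised HOX expression. Menin is an adaptor that ties the histone methyltransferase MLL to chromatin, and MEIS1 is among the genes whose expression is best known to depend on that contact.

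The cells were a mouse leukaemia line carrying NUP98-HOXD13, which joins the nucleoporin NUP98 to the homeobox protein HOXD13. The fusion bore biotin, and BioChIP-seq collects DNA crosslinked to a biotinylated protein on streptavidin beads, without an antibody. One group received the solvent DMSO and the other 2 µM VTP50469, which blocks the contact of menin with MLL, both for 96 h and with IL-3, IL-6 and SCF in the medium. Each treatment had 1 library, and the DMSO input library was not used here. The labels name 1 line and do not state the construct that expressed the tagged fusion. The files hold peaks and no expression, so neither the labelled cell type nor the RNA of Pbx3 and Meis1 could be examined. With 1 library per treatment there was no test across samples, and every difference is between 2 libraries.

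The DMSO list had more peaks, so the counts at both genes are read against the whole lists. Of the 613 DMSO peaks, 308 overlapped no VTP50469 peak by 1 bp or more, which is 50.2% (exact Clopper-Pearson 95% interval 46.2 to 54.3%), and the other 49.8% were shared. In the VTP50469 list 77.8% of peaks were shared. With the DMSO peaks in 4 equal bins by −log10 q, the share absent from the VTP50469 list was 72.7% in the weakest bin, then 64.7%, 50.3% and 13.1% in the strongest. These intervals and all others below cover counting error only.

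Pbx3 spans chromosome 2 from 34171457 to 34372045 in mm10, a length of 201 kb. All 7 DMSO summits and both VTP50469 summits lay inside the span, and none lay in the 10 kb on either side. The gene table used here gives no exons or strand, so exonic and intronic summits could not be told apart. As background, Pbx3 is read from its upper end (the higher coordinate) towards its lower end. The DMSO summits formed 2 groups separated by 113 kb: 3 in the middle of the gene and 4 near the upper end. They are numbered here from the lower to the higher coordinate.

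The 4 peaks near the upper end had summits within 7.29 kb of each other, between 94.0% and 97.6% of the way along the span. Peak 7, the outermost, was the strongest of all Pbx3 peaks. It covered 34365008 to 34368016, its summit lay 4754 bp inside the upper end, and its fold enrichment over the local background, as the authors' caller gave it, was 28.3. Its −log10 q of 78.7 ranked 8 among the 613 DMSO peaks, its fold ranked 5 and its width of 3009 bp ranked 8, against a median width of 350 bp in that list. One summit is listed for this wide interval, so whether it holds several sites was not examined. The other 3 peaks of the group were weak. Peak 6 (34364107 to 34364612) had a fold of 4.85, peak 5 (34363445 to 34363729) a fold of 4.93, and peak 4 (34359764 to 34360097) a fold of 6.14. Going outwards along the gene, the steps between summits were 3.51 kb, 0.974 kb and 2.81 kb.

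With VTP50469, peak 7 was the one member of this group that remained in the list. The VTP50469 interval ran from 34365474 to 34367952, was 2479 bp wide, and lay wholly within the DMSO interval. The summits were 20 bp apart. Its fold in the VTP50469 list was 16.1, ranking 29 of 400, and its −log10 q of 34.9 ranked 35. Peaks 4, 5 and 6 had no VTP50469 interval, and their summits lay 7311, 3802 and 2828 bp from the nearest VTP50469 summit, which was that of peak 7. Peaks 4 and 5 were in the weakest bin of DMSO peaks by −log10 q, with values of 5.70 and 2.92, and peak 6 was in the next bin, with 6.84. In those bins 72.7% and 64.7% of all DMSO peaks were absent from the VTP50469 list.

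The 3 peaks in the middle of Pbx3 had summits within 11025 bp, between 32.0% and 37.5% of the way along the span. Peak 1 (34235400 to 34235923) had a fold of 11.8 and a −log10 q of 20.9, in the strongest bin. It was shared: the VTP50469 interval from 34235566 to 34235884 lay within it, with a summit 58 bp away, a fold of 7.17 and a −log10 q of 7.76. Peak 2 (34244727 to 34245143) had a fold of 9.28 and a −log10 q of 43.2, and peak 3 (34246508 to 34246848) a fold of 7.49 and a −log10 q of 8.83. Neither had a VTP50469 interval, and the nearest VTP50469 summits were 9.27 and 10.97 kb away.

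**Figure D1:**
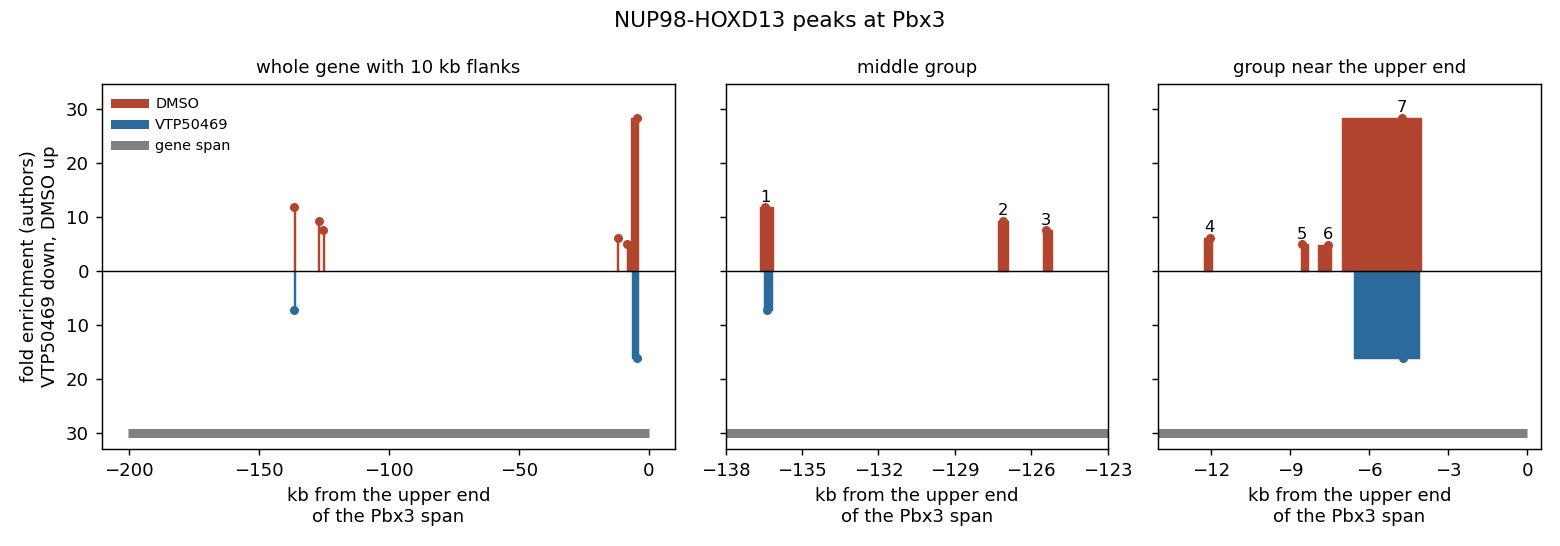
Peaks at Pbx3, with DMSO above and VTP50469 below the line. The horizontal axis is the distance in kb from the upper end of the gene span, the vertical axis is the authors' fold enrichment, blocks are intervals, dots are summits and numbers name the DMSO peaks; peaks 1 and 7 alone have a VTP50469 counterpart, with folds of 7.17 and 16.1.

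Together the DMSO intervals covered 5416 bp of Pbx3 and the VTP50469 intervals 2798 bp. Of the 7 DMSO peaks at Pbx3 5 were in the DMSO list alone and 2 were shared, beside 50.2% and 49.8% over all DMSO peaks, and both VTP50469 peaks were shared, beside 77.8%. The 2 retained peaks were the ones with the highest folds, 11.8 and 28.3, and the 5 others had folds from 4.85 to 9.28. By −log10 q the order differed, because peak 2 ranked 38 of 613 and yet was absent with VTP50469, whereas peak 1 ranked 135 and was present. Of the 153 DMSO peaks in the strongest bin, 20 were absent from the VTP50469 list, and peak 2 was among them. With bins by fold peak 2 was in the second strongest, where 51.0% were absent. Among all 308 peaks of the DMSO list alone, peak 2 had the second highest −log10 q and the 52nd highest fold.

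**Figure D2:**
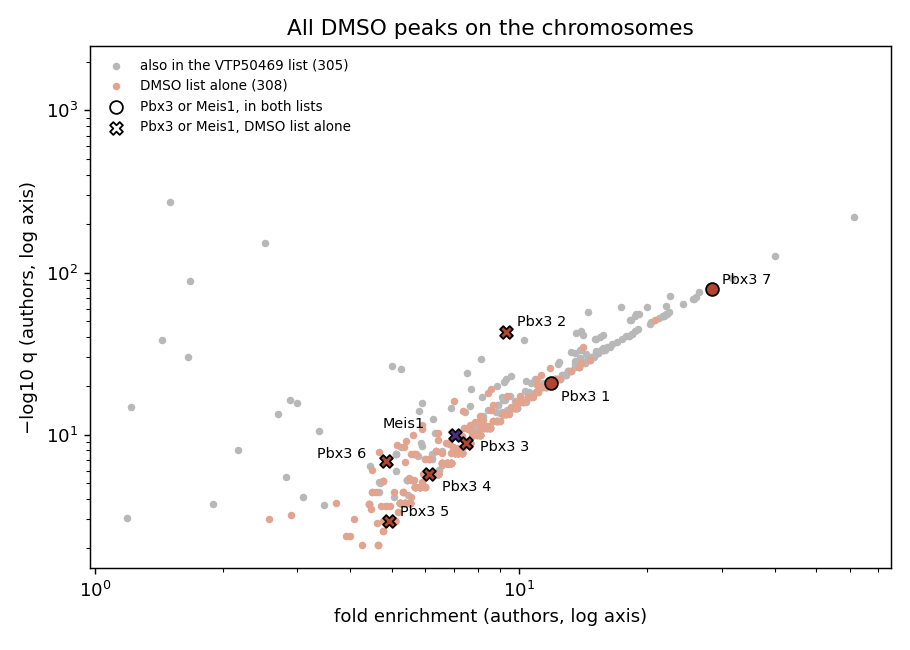
Authors' fold (horizontal, log axis) and −log10 q (vertical, log axis) of the 613 DMSO peaks, grey where a VTP50469 peak overlaps and light red where none does. Large circles are Pbx3 peaks in both lists and crosses are Pbx3 and Meis1 peaks in the DMSO list alone; Pbx3 peak 2 lies above most peaks of like fold.

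The fold and p-value of a peak together fix the number of fragments at its summit and the local background, if the caller used a Poisson model. The counts rebuilt in this way place the DMSO summits of Pbx3 between 30 fragments (peak 5) and 211 fragments (peak 2). Peaks 1, 3, 4, 5 and 7 stood on the genome-wide background of the list, which was 1.31 fragments on the scale of the control. Peak 2 stood on a local background of 7.0, or 5.33 times the genome-wide value, and peak 6 on 4.0, or 3.04 times. Peak 2 therefore had more fragments than peak 7, with 211 against 186, but a lower fold. A local background of 5 or more was found at 24 DMSO peaks, of which 4, or 16.7%, were in the DMSO list alone, peak 2 among them.

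At both shared Pbx3 summits the VTP50469 library had fewer fragments. Peak 7 had 186 fragments with DMSO (exact Poisson 95% interval 160 to 215) and 98 with VTP50469 (79.6 to 119). Peak 1 had 76 (59.9 to 95.1) and 42 (30.3 to 56.8). Neither pair of intervals overlapped before scaling for depth. At peak 1 the gap, from 56.8 to 59.9, was small and closes once the VTP50469 counts are scaled. Scaled for a VTP50469 depth of 0.945 times that of DMSO, the ratio of VTP50469 to DMSO was 0.558 (0.432 to 0.716) at peak 7 and 0.585 (0.391 to 0.863) at peak 1. The depth ratio assumes that both lists were called against the same control, which no source states. These ratios lay near each other although the sites are 132 kb apart and differ in height.

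The ratios at Pbx3 were low among the sites listed with both treatments. Over 288 summits matched within 200 bp, the median ratio was 0.903, with an interquartile range of 0.755 to 1.04. Peak 7 ranked 13 from the lowest and peak 1 ranked 19, so that 4.51% and 6.6% of matched summits had ratios as low or lower. This is a description of 2 libraries, and the ranks carry no replicate error. A matched site had to be listed with VTP50469, so the 308 peaks of the DMSO list alone were left out. A weak DMSO summit with a low ratio would have fallen under the limit of the VTP50469 list. The median and the ranks thus hold for retained sites only, and sites of like height were not compared. Taken directly from the deposited folds, without rebuilt counts, the ratios were 0.570 at peak 7 and 0.606 at peak 1.

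**Figure D3:**
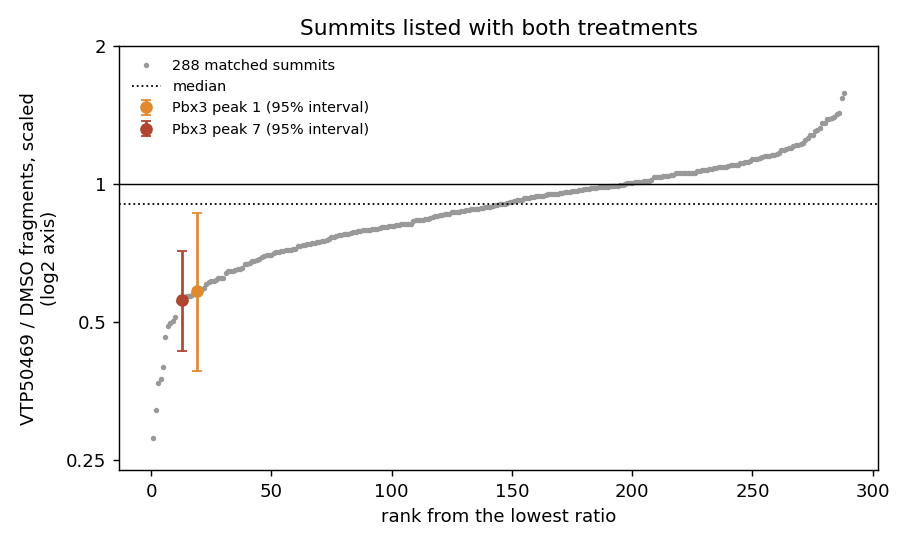
Depth-scaled fragment ratio, VTP50469 over DMSO (vertical, log2 axis), for 288 matched summits ordered from the lowest (horizontal). The Pbx3 peaks 1 and 7 are marked with exact 95% intervals for counting error; both lie below the median of 0.903, drawn dotted.

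A missing interval does not give the height of the VTP50469 library there, but the list's own limits bound it. The lowest −log10 p in the VTP50469 list was 5.85. On the genome-wide background a summit needs 25 fragments to reach that value, and the lowest count found at such a listed peak was 26. For peak 3, with 47 DMSO fragments, a VTP50469 summit below 56.3% of the DMSO height would have stayed under that value. For peak 4, with 38 fragments, the limit was 69.6%, and for peak 5, with 30 fragments, it was 88.2%. On the local backgrounds found with DMSO the limits were 69.5% for peak 6, with 67 fragments, and 30.1% for peak 2, with 211.

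The limits for peaks 3, 4, 5 and 6 thus lay above the ratio of 0.558 measured at peak 7, and that for peak 3 lay below the 0.585 of peak 1. The limit for peak 2 lay below the intervals of both shared peaks. At peak 2 the limit corresponds to 60 VTP50469 fragments. It holds if the local background of 7.0 applied to the VTP50469 library as well, which the list does not show. At peaks 4, 5 and 6 the lists cannot tell a loss of the signal from a fall of the size measured at the shared peaks. The same holds for peak 3, whose limit of 56.3% lay within the intervals of both shared peaks.

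**Figure D4:**
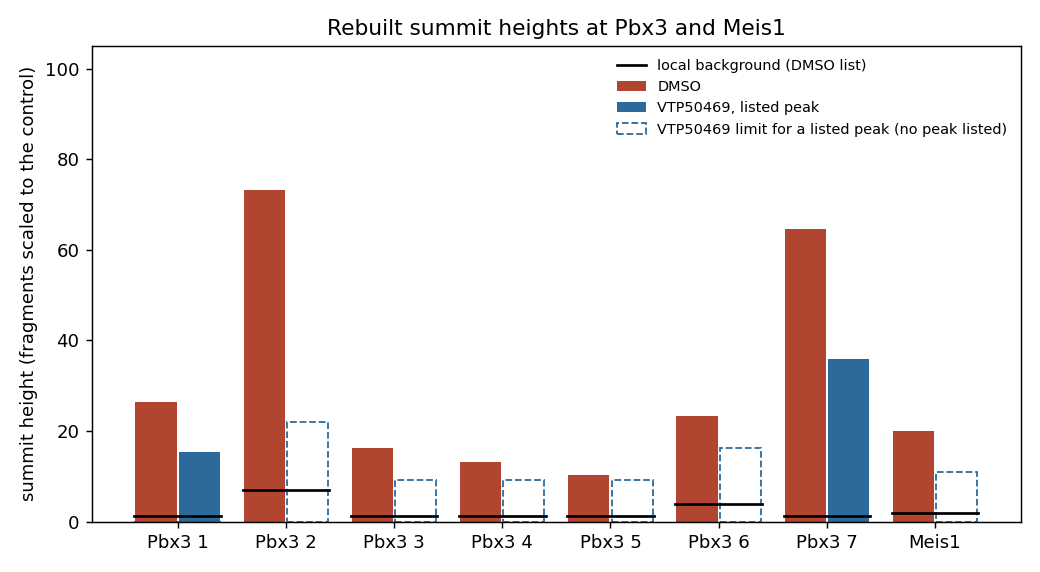
Height of each DMSO summit at Pbx3 and Meis1 in fragments scaled to the control (red bars, vertical axis), with the VTP50469 height where a peak is listed (blue) and otherwise the height at which a VTP50469 summit would reach the lowest −log10 p of its list (dashed outline). Black lines are the local background from the DMSO list; Pbx3 peak 2 has the greatest distance between the bar and its outline.

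Meis1 spans chromosome 11 from 18880428 to 19019651, a length of 139 kb, and had no peak inside the span in either list. Its single DMSO peak, at 19023746 to 19024066, lay outside the upper end, with the summit 4211 bp beyond it. RefSeq places a Meis1 start site on the minus strand at 19018969, so the summit lay 4893 bp upstream of that start. The peak was 321 bp wide and had a fold of 7.05, ranking 355 of 613, a −log10 q of 9.93, ranking 309, and 58 fragments on a local background of 2.0. It was thus near the middle of the DMSO list, where the median fold was 7.64.

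No VTP50469 peak lay in or within 10 kb of Meis1, and the nearest VTP50469 summit to the DMSO summit was 2697 kb away. The Meis1 peak was in the second weakest bin of DMSO peaks, of which 64.7% were absent from the VTP50469 list. Of the 233 genes with 1 DMSO peak, 121 had no VTP50469 peak, or 51.9% (exact 95% interval 45.3 to 58.5%), and Meis1 was one of them. A VTP50469 summit below 54.7% of the DMSO height, or 30 fragments, would have stayed under the lowest −log10 p of the list. This limit holds if the local background of 2.0 found with DMSO applied to the VTP50469 library as well, which the list does not show. The lists cannot tell whether the fusion left this site or was bound there at up to that limit.

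**Figure D5:**
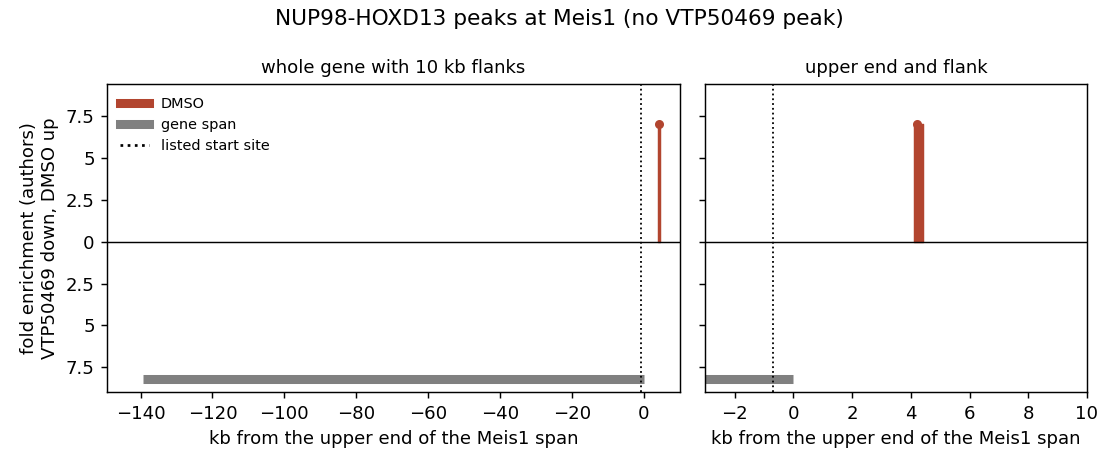
Peaks at Meis1, drawn as for Pbx3: distance in kb from the upper end of the gene span (horizontal) and the authors' fold (vertical). The single DMSO peak, of fold 7.05, stands beyond the upper end of the span and upstream of the listed start site (dotted), and no VTP50469 peak is listed.

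The 250 bases before the listed Meis1 start site (RefSeq, GRCm38.p6, chr11:19018970-19019219, minus strand) are shown as the promoter window at hand, and neither list has a peak in them. That start site lies 682 bp inside the upper end of the span, so the window is within the span. Any start site nearer the upper end, and so nearer the peak, was not examined. Capitals mark CG pairs, the sequence that the CXXC domain of MLL binds when unmethylated.
Meis1: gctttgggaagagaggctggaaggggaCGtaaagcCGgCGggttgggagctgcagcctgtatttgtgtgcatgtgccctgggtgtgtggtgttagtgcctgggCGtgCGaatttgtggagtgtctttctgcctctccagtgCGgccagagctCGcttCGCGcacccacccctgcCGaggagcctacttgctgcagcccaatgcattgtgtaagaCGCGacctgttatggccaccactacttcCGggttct
The window held 13 CG pairs, against a median of 6 over 32851 such windows in the table, and 31.5% of windows had as many or more. The peak began 4526 bp beyond its upstream edge. Motifs were searched on both strands: TGACAG, bound by MEIS proteins, TGATNNAT, bound by PBX with HOX proteins, and CCAATAAA and CTCGTAAA, bound by posterior HOX proteins. None was in this window, and 15.9%, 7.68%, 1.02% and 0.11% of all windows held them. The absence says only that these letters are not in these 250 bases. No window of the table overlapped a DMSO peak of either gene, and the table was matched for 1 of the 2 genes.

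The surroundings of the genes held few peaks, but the lists hold only 613 DMSO and 400 VTP50469 peaks over all chromosomes. Whether the distances given here are unusual was not tested. Beyond the 10 kb limit, the nearest DMSO summit to Pbx3 lay 62.7 kb past its upper end, inside Mapkap1, a gene for a subunit of the kinase complex mTORC2. That peak (chromosome 2, 34434724 to 34434987) had a fold of 5.08, a −log10 q of 2.92 and no VTP50469 counterpart. On the lower side the nearest DMSO summit was 11359429 bp away, in Apbb1ip. The nearest outside VTP50469 summit was in Strbp, 3310 kb from the upper end. Around Meis1 the nearest further DMSO summits were 2220 kb above, in Vps54, and 9770 kb below, outside any protein-coding gene. The neighbouring coding genes Mvb12b, Etaa1 and Spred2 had no peak in or within 10 kb, and neither had the non-coding genes 8430419K02Rik and 4933406G16Rik beside Meis1. Gm16141, a non-coding gene inside the Meis1 span, had no summit within it, but the DMSO peak assigned to Meis1 also lay within 10 kb of it.

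Of the 18 TALE homeobox genes listed, Pbx3 and Meis1 were the 2 with a DMSO peak, and Pbx3 was the 1 with a VTP50469 peak. Both genes and the list were chosen with earlier results of these data known, so 2 of 18 says nothing about TALE genes as a class. Over all 21887 protein-coding genes 1.48% had a DMSO peak and 1.06% a VTP50469 peak, and long genes have more room for a peak. Meis2, which spans 206 kb, had none, and the nearest DMSO summit was 146 kb away. The nearest to Pbx4 was 253 kb away in both lists. Meis3, Tgif1, Tgif2 and the 6 Irx genes also had none within 10 kb.

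Genes of 2 further lists are set beside these values. Of 29 other progenitor and leukaemia regulators found in the table, 11 had a DMSO peak and 6 a VTP50469 peak, and 5 had a DMSO peak and no VTP50469 peak. Over all protein-coding genes 1.48% had a DMSO peak and 1.06% a VTP50469 peak. The lists were chosen with earlier results of these data known, so their counts are no test of such genes as a set. Over all 325 genes with a DMSO peak, 138, or 42.5%, had no VTP50469 peak, so the 5 of 11 lay near that share. The HOX genes Hoxa7 and Hoxa9, which are neighbours and can share peaks under the 10 kb rule, had 5 in each list, Hoxa10 had 2 and 1, and Hoxc6 had 3 and 2. The transcription factor gene Runx2 had 3 and 1, and the kinase gene Cdk6 had 1 and 2. Eya1, a coactivator gene, had 3 and 0, and the transcription factor genes Myb, Mecom, Mef2c and Bcl11a had 1 and 0 each, as Meis1 did. Of 20 genes of MLL and menin complexes 1 had a peak, the histone acetyltransferase gene Kat6b, with 1 DMSO and 2 VTP50469 peaks.

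Pbx3 was among the genes with most DMSO peaks, though it was chosen with earlier results of these data known. Of the 21887 protein-coding genes 3 had 7 or more, or 0.0137%: Pbx3, Tut4 and 9930021J03Rik. The 5 genes most like Pbx3 were taken by the smallest summed difference in the number of peaks in the 2 lists. They were Tut4, a terminal uridylyltransferase gene, with 7 DMSO peaks and 1 VTP50469 peak, Zcchc7, a gene of RNA surveillance, with 6 and 1, 9930021J03Rik with 9 and 2, Dennd1b with 5 and 1, and Umad1 with 4 and 2. Per 100 kb of span Pbx3 had 3.49 DMSO peaks, near the 3.42 of Zcchc7 and below the 7.00 of Tut4 and the 9.77 of 9930021J03Rik. Dennd1b had 2.35 and Umad1 2.36. Of the 41 genes with 3 or more DMSO peaks, 34 had fewer VTP50469 peaks, or 82.9% (exact 95% interval 67.9 to 92.8%), and 4, or 9.76%, had none. A fall in number with 1 or more peaks retained, as at Pbx3, was thus common among genes with several DMSO peaks. These genes were picked by their count in the longer list, which by itself favours a lower VTP50469 count. Overlapping or neighbouring genes, such as Hoxa7 and Hoxa9, can count the same peaks. The intervals given for counts of genes treat such genes as separate.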

How the data were processed

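BioChIP-seq peaks of biotinylated NUP98-HOXD13 were taken from 1 DMSO and 1 VTP50469 library of 3 samples. The authors deposited 1 peak list per library, with a fold enrichment (a ratio to background), a −log10 p and a −log10 q per peak, and a score that was not used. Per the submitters' processing notes the build was mm10 and the tools were MACS2, bedtools, SAMtools 1.95, Picard 2.9.4, STAR 2.7.5a and bcl2fastq 2.20.0.422. What each did, its settings and the control were not stated, and the lists give no read totals, so depth was not read directly.

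Only peaks on the autosomes, X and Y were used. Gene spans were those of RefSeq for GRCm38.p6, which shares its primary assembly with mm10. Summits within 10 kb of a span were assigned to the gene, and an overlap of 1 bp made a peak shared. Fragments were rebuilt under a Poisson model with a pseudocount of 1, matching −log10 p within 0.001, for 611 of 613 DMSO and 397 of 400 VTP50469 peaks. The method was tested on data simulated under the same model. That checks the rebuilding only, and cannot show that the authors' caller used this model. In 100.0% of the 376 DMSO and 241 VTP50469 peaks at the genome-wide background, the counts came out within 0.05 of a whole number. The background and the value of 1 fragment were fitted to these same peaks, so that share is no independent check of the model. Named genes were Pbx3 and Meis1, their neighbours, genes of 3 lists with a peak, genes with at least as many DMSO peaks as Pbx3, and the 5 most like it. Members and lists were chosen with earlier results of these data known. The limits for missing peaks, the CG count and the ratio of deposited folds were chosen after seeing the data. Alternatives covered the flank, strength, overlap, list length and scaling. The work used Python 3.11.15, scipy 1.17.1, pandas 2.3.3, numpy 2.4.6 and, for plots, matplotlib 3.10.9.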

Additional observations from a re-analysis of the deposited data

How the results depend on the processing

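Under the alternatives 59 values were computed. Of these 52 stayed within 1.5 times the main count, or within the main value's 95% interval for shares and ratios, 7 moved further and 0 reversed. The number of shared Pbx3 peaks was 3 when peaks were extended by 1 kb. At −log10 q of at least 10, Pbx3 had 3 DMSO peaks and 1 VTP50469 peak and Meis1 had 0 DMSO peaks, by construction. When each list was cut to its 400 strongest peaks, Pbx3 had 4 DMSO peaks, of which 2 were shared, and still 2 VTP50469 peaks. With a flank of 0 or 2 kb Meis1 had 0 DMSO peaks, since its summit lies 4211 bp outside the span. With bins by fold, the weakest of the 4 bins had 63.6% of its DMSO peaks in the DMSO list alone, and the cause was not tested. No paired analysis was possible because there was a single library for each treatment. Peak sequences were not used here, so motifs were counted in the promoter window alone.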
